A study of Homo sapiens with 6 samples.

Results

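Transcripts of 10 genes that set or read out the activity of the stress factor NRF2 were measured in HepG2 cells, a long-established line from a human liver carcinoma, grown in DMEM. The genes were taken by symbol from the deposited expression table, and all 10 were found there, of 60504 genes in the count table. They are NFE2L2, which encodes NRF2, its relative NFE2L1, the repressors KEAP1 and CUL3, the KEAP1-binding protein gene SQSTM1, the competing repressor BACH1, the partner proteins MAFG, MAFF and MAFK, and the target HMOX1. One group of cells received 10 µM oridonin, a diterpenoid made by the herb Isodon rubescens, and the other received 0.1% DMSO, the usual solvent, both for 48 h. Each group had 3 RNA sequencing libraries, 6 in all, and whether the oridonin wells also held DMSO is not stated in the labels. HepG2 is 1 tumour line, so all libraries share its genome. The labels do not say whether the libraries came from separate cultures, so errors and tests measure the spread between these libraries, which may be technical. The set was chosen with the oridonin values in view, in particular that of HMOX1. The values of the 10 genes are therefore a description, and no p-value is given for them.

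NRF2 is a transcription factor that KEAP1, an adaptor with reactive cysteines, binds and hands to the CUL3 ubiquitin ligase for destruction. Electrophiles and oxidants modify KEAP1, NRF2 protein then accumulates, pairs with a small MAF protein and binds antioxidant response elements in genes for glutathione synthesis, quinone reduction and drug conjugation. This control acts mainly on the protein, so transcript levels of NFE2L2 need not follow NRF2 activity. BACH1 occupies the same elements with the same MAF partners and represses HMOX1 until heme or oxidants remove it. In liver cells the pathway governs much of the defence against reactive drugs.

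Total counts ran from 27674586 to 30739574 in the oridonin libraries and from 22250202 to 29352396 in the DMSO libraries. The 10 genes had between 593 and 13436 counts in a library, and all passed the filter on low counts. All 14 hepatocyte and HepG2 markers were detected in both groups. Their summed level ran from 22684 to 24999 CPM (counts scaled to each library's total) in oridonin libraries and from 32288 to 35983 CPM in DMSO libraries, and the part of this shift in the results below was not tested. Of 12 macrophage markers, MARCO and VSIG4 were at 0 in every library. LYZ, at 426 to 466 CPM in oridonin and 667 to 689 CPM in DMSO, carried nearly all of their sum, and the rest summed to 1.89 to 2.89 CPM in oridonin and 1.64 to 2.24 CPM in DMSO. The next 10 markers were of other leukocytes and, with HBB and HBA1, of red cells. Their summed level was 2.24 to 3.36 CPM in oridonin and 3.06 to 3.29 CPM in DMSO, with MS4A1 at 0. The 11 endothelial and mesenchymal markers summed to 55.005 to 57.8 CPM in oridonin and 73.0 to 78.6 CPM in DMSO. This sum does not stand for each marker. In the test described below, 7 were tested, and 3 were called higher and 2 lower with oridonin. That is 71.4% against 41.9% of all genes tested, with a median log2 fold change of 0.32.

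Sequence around the start sites was available for 8 of the 10 genes, in 17 windows of 250 bases upstream of a RefSeq start (GRCh38.p14), and the entries for HMOX1 and MAFK are missing from that table. The windows were searched on both strands for the core of the antioxidant response element, TGACNNNGC, and for TGAGTCA, an AP-1 site. One stretch can hold both motifs, since the second read on the other strand can begin the first. The first was found in 2 of the 17 windows, 1 each of KEAP1 and MAFF, and in 10.9% of all 35116 windows. The second was found in 1 of the 17, of BACH1, and in 4.20% of all windows. Among NRF2 target genes described further on, 8 of the 27 with a window held the first motif, against 16.2% of tested genes with a window. A match is only a run of letters, not a bound site. The 4 matches found are shown so that they can be read beside the levels of these genes, with the match in capitals, 5′ to 3′ on the strand of the gene; the second KEAP1 match and the MAFF match read on the opposite strand.
KEAP1, chr19:10502807-10502835, minus strand: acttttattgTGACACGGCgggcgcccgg
KEAP1, chr19:10502784-10502812, minus strand: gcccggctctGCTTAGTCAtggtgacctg
BACH1, chr21:29298864-29298890, plus strand: gcggaaggagTGAGTCAcctgaccgct
MAFF, chr22:38201862-38201890, plus strand: cttccaggggGCGGGGTCAtacgggggcg
The KEAP1 stretches lie wholly in an annotated 5′ exon of a longer KEAP1 transcript (GENCODE 29). Of the 27 BACH1 bases, 20 are exonic, and all 29 MAFF bases are. The window of NFE2L2 nearest its inner start site is shown because this gene had the lowest log2 fold change of the set. It holds neither motif, is 76.8% G or C, and lies in an intron of longer NFE2L2 transcripts and within the annotated span of an antisense RNA gene, AC079305.1.
NFE2L2, chr2:177264132-177264381, minus strand: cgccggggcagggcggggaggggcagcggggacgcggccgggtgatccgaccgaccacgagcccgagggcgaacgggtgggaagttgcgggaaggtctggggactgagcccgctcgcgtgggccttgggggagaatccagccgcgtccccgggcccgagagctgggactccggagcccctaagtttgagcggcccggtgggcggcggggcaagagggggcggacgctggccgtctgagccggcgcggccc

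With oridonin, transcripts of the activators NFE2L2 and NFE2L1 were lower, those of SQSTM1, BACH1 and KEAP1 were higher, and those of CUL3, the 3 small MAF genes and HMOX1 did not pass the test. edgeR's quasi-likelihood test with Benjamini-Hochberg adjustment over all 15116 genes tested thus called 3 of the 10 genes higher and 2 lower. Over all genes tested it called 41.9%, of which 20.6% of genes were higher and 21.3% lower, and since the set was chosen on this comparison nothing is read from its count. The median log2 fold change was 0.08 over the 10 genes and 0.01 over all genes tested. The groups did not overlap in CPM (from here on with library sizes scaled by TMM, the trimmed mean of M values) for 6 of the 10 genes, and for 51.6% of all genes tested, 26% with oridonin above and 25.6% with it below. In RNA from whole cultures, a change in every cell and a change in the share of cells that carry a transcript cannot be told apart.

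**Figure D1:**
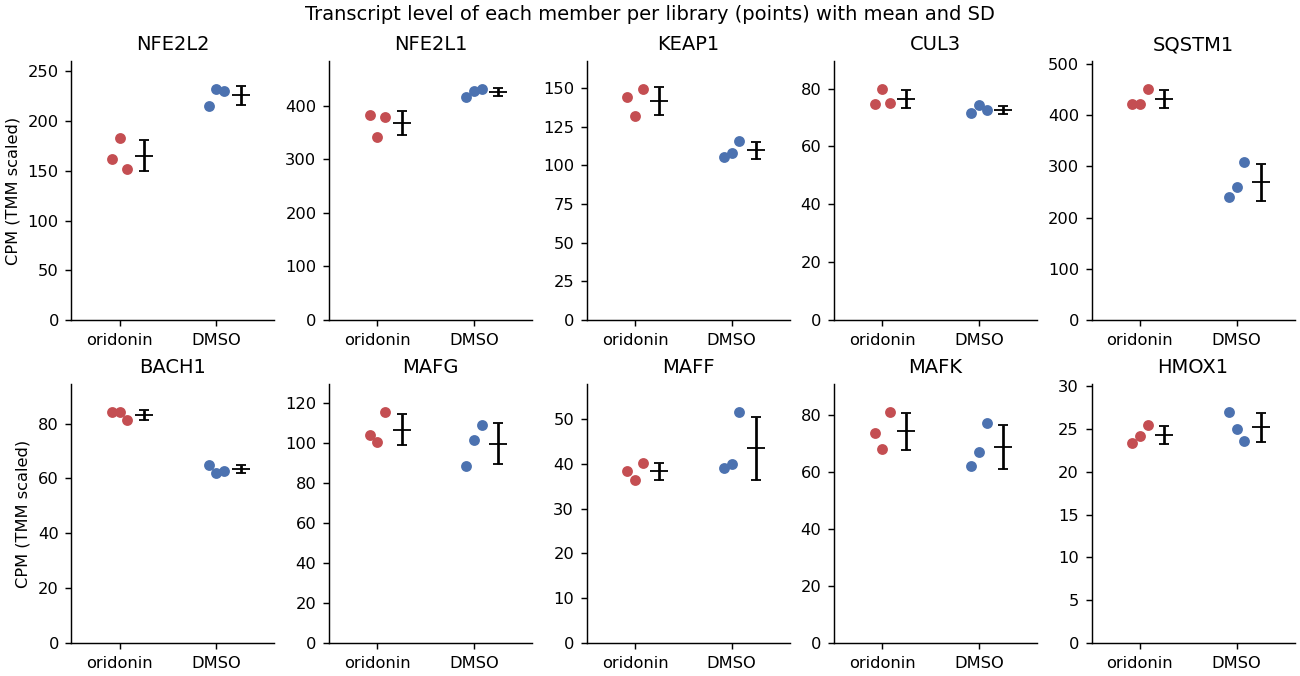
TMM-scaled CPM of the 10 genes (vertical axis, from 0) in the 3 oridonin and 3 DMSO libraries, each point a library, with the mean and SD in black. Oridonin points of NFE2L2 and NFE2L1 lie below all DMSO points, those of KEAP1, SQSTM1 and BACH1 lie above them, and those of HMOX1 overlap them.

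NFE2L2 (ENSG00000116044, hg38 chromosome 2, 177227595 to 177392697, minus strand) had 162, 183 and 151 CPM in oridonin libraries 1 to 3, against 215, 233 and 230.3 CPM in DMSO libraries 1 to 3. Every oridonin library was below every DMSO library. The means were 165 ± 15.9 CPM with oridonin and 226 ± 9.68 CPM with DMSO (SD, n = 3), a log2 fold change of -0.45 ± 0.06 (SE). It was the lowest log2 fold change of the 10 genes, and 77.5% of all genes tested had a log2 fold change smaller in size.

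NFE2L1 encodes NRF1, a related factor anchored in the endoplasmic reticulum that drives proteasome genes when proteasome capacity is short. It had 383, 342 and 379 CPM in oridonin libraries, against 416, 428 and 432 CPM in DMSO libraries. The groups did not overlap, and the log2 fold change was -0.21 ± 0.05 (SE). NFE2L1 was the most abundant of the 10 genes per length in both groups, at 63.5 ± 3.99 FPKM with oridonin and 72.5 ± 1.80 FPKM with DMSO (SD, n = 3). FPKM, fragments scaled to gene length and library size and deposited by the authors, is used wherever genes are compared with each other.

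KEAP1 (ENSG00000079999, hg38 chromosome 19, 10486120 to 10503741, minus strand), the sensor that holds NRF2 back, moved the other way from NFE2L2. Its levels were 144, 132 and 149.6 CPM with oridonin and 105, 108 and 116 CPM with DMSO. The lowest oridonin library was above the highest DMSO library, and the log2 fold change was 0.37 ± 0.06 (SE). CUL3, the ligase scaffold, had 74.6, 79.9 and 74.9 CPM with oridonin and 71.5, 74.2 and 72.4 CPM with DMSO. Its groups stood apart by less than 1 CPM at their nearest libraries, and the log2 fold change of 0.07 ± 0.05 (SE) did not pass the test. With total-count scaling it did, at 0.15.

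SQSTM1 (ENSG00000161011, hg38 chromosome 5, 179806398 to 179838078, plus strand) encodes p62, an autophagy receptor that binds KEAP1, draws it away from NRF2 and is itself a known NRF2 target. It had 422, 422 and 452 CPM in oridonin libraries, against 239, 259.6 and 309.8 CPM in DMSO libraries. The groups did not overlap, though the DMSO libraries spread more, at 432 ± 17.3 CPM with oridonin and 269.6 ± 36.2 CPM with DMSO (SD, n = 3). The log2 fold change of 0.68 ± 0.08 (SE), or 1.602-fold, was the highest of the 10 genes. It exceeded 88.6% of all genes tested in size.

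BACH1 (ENSG00000156273, hg38 chromosome 21, 29194071 to 29630751, plus strand), the heme-sensing repressor of HMOX1, had 84.3, 84.2 and 81.2 CPM with oridonin and 64.9, 62.2 and 62.9 CPM with DMSO. Libraries within a group were within a few CPM of each other, and the groups stood well apart. The log2 fold change was 0.39 ± 0.05 (SE), or 1.31-fold.

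The small MAF proteins bind DNA as partners of NRF2, NRF1 and BACH1 and lack an activation domain of their own. MAFG had 104, 100.5 and 115 CPM with oridonin and 88.6, 101.5 and 109 CPM with DMSO, a log2 fold change of 0.10 ± 0.07 (SE). MAFK had 73.7, 67.9 and 81.0 CPM with oridonin and 62.0, 67.0 and 77.2 CPM with DMSO, a log2 fold change of 0.11 ± 0.08 (SE). MAFF had 38.3, 36.3 and 40.3 CPM with oridonin and 39.0, 39.9 and 51.6 CPM with DMSO, a log2 fold change of -0.19 ± 0.10 (SE). The groups overlapped for all 3 genes, and none was called. DMSO library 3 was the highest of its group for each of the 3, and without it the log2 fold change of MAFF was -0.05 and that of MAFK was 0.20 and was called. MAFF was called without DMSO library 1, at -0.26, and without the filter on low counts, at -0.17. MAFG and MAFK were called with total-count scaling, at 0.18 and 0.19.

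Summed over the 3 genes, small MAF transcripts stood at 43.1, 41.3 and 47.96 FPKM in oridonin libraries and 37.2, 41.3 and 47.4 FPKM in DMSO libraries, and the groups overlapped. MAFF made up 15.6 ± 0.374% of that sum with oridonin and 18.3 ± 1.14% with DMSO (SD, n = 3), and the groups did not overlap in this share. MAFK made up 37.9 ± 0.616% with oridonin and 36.6 ± 0.376% with DMSO, again without overlap, and MAFG the remaining 46.5 ± 0.527% with oridonin and 45.2 ± 1.44% with DMSO, with overlap.

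HMOX1 (ENSG00000100292, hg38 chromosome 22, 35380361 to 35394214, plus strand) encodes heme oxygenase 1, which opens the heme ring to biliverdin, iron and carbon monoxide, and is induced in many cells by electrophiles, heme and heavy metals. It had 744, 745 and 718 counts in oridonin libraries, against 593, 712 and 646 counts in DMSO libraries. Scaled to library size these were 23.4, 24.2 and 25.5 CPM with oridonin and 27.0, 25.01 and 23.6 CPM with DMSO. The groups overlapped throughout, with the highest value in DMSO library 1 and the lowest in oridonin library 1. The log2 fold change was -0.05 with a 95% interval from -0.20 to 0.10 (0.872-fold to 1.07-fold). Since HMOX1 was chosen for a value near 0 in this comparison, the interval describes the spread of these libraries and sets no bound on a change. Of all genes tested, 12.99% had a log2 fold change smaller in size. With total-count scaling the sign turned, at 0.03.

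**Figure D2:**
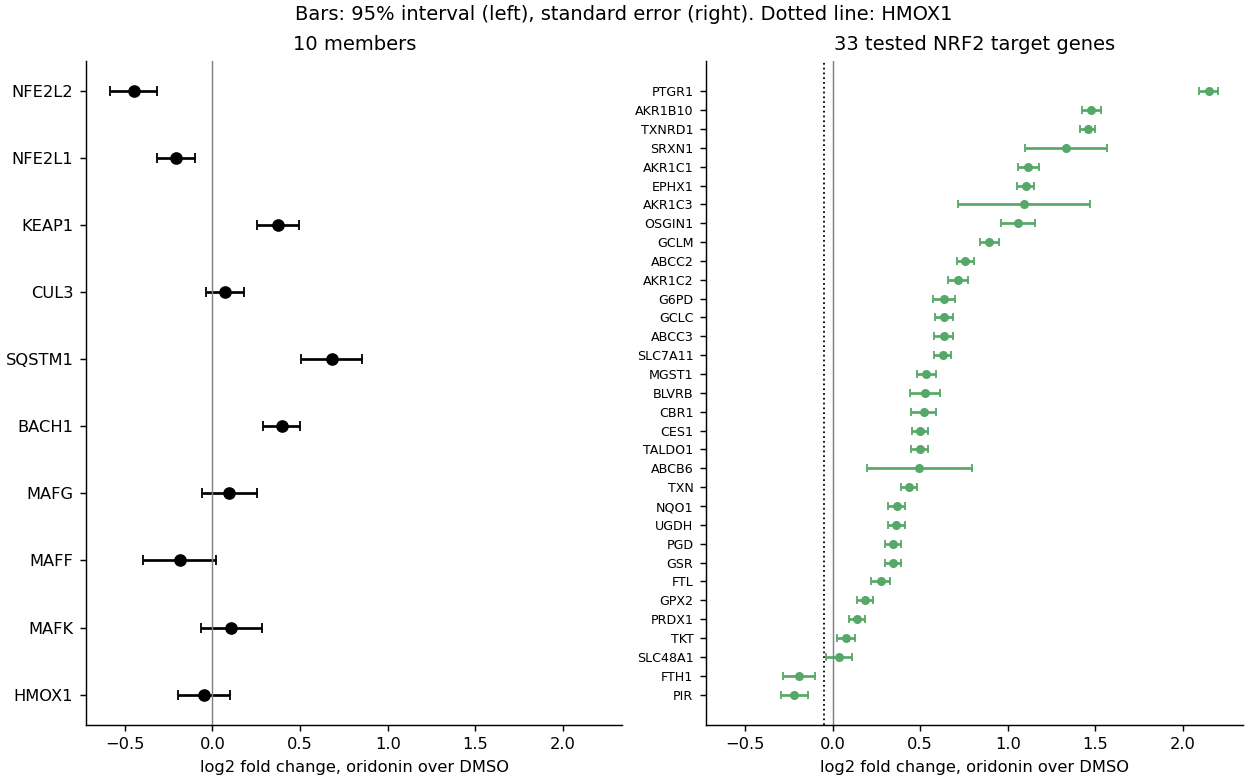
Log2 fold change, oridonin over DMSO (horizontal axis), of the 10 genes with 95% intervals (left) and of the 33 tested NRF2 target genes with standard errors (right), with 3 libraries per group. The dotted line marks HMOX1 at -0.05, and 31 of the 33 target genes lie to its right. HMOX1 and the list were chosen with values of these libraries known, so this count is only a description.

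Most other NRF2 targets were higher with oridonin. Of 35 target genes listed, not counting the 10, 33 were tested, and 28 were called higher and 1 lower, a share of 87.9% against 41.9% of all genes tested. Their median log2 fold change was 0.53, against 0.01 over all genes tested, and 31 of them lay above HMOX1. The list shares genes with one whose rise in these libraries was already known, so it is not independent evidence of its direction. HMOX1 was chosen for a value near 0, so its place below most of the list follows from these choices and is no further result. PTGR1, a reductase of reactive alkenals, rose to 235 ± 7.62 CPM with oridonin, against 53.1 ± 2.52 CPM with DMSO (SD, n = 3), a log2 fold change of 2.15 (edgeR adjusted p = 7.63e-14). AKR1B10, an aldo-keto reductase whose reads can be shared with close paralogs, rose at 1.48, and TXNRD1, the cytosolic thioredoxin reductase, at 1.45. The target called lower was PIR, an iron-binding nuclear protein, at -0.22 (edgeR adjusted p = 0.0312), and the call did not hold in many alternatives. It was not called without oridonin library 1 (-0.24, edgeR adjusted p = 0.0563), without oridonin library 2 (-0.19, adjusted p = 0.113) or without DMSO library 1 (-0.17, adjusted p = 0.124). Nor was it called by DESeq2 (-0.23, adjusted p = 0.0727), without the filter on low counts (-0.20, edgeR adjusted p = 0.0659), with total-count scaling (-0.14, adjusted p = 0.172) or by limma on log2 FPKM (-0.20, adjusted p = 0.0534) or log2(FPKM + 1) (-0.18, adjusted p = 0.0622). Where the list kept 1 gene called lower in these alternatives, it was another gene. FTH1 and SLC48A1 had log2 fold changes of -0.19 and 0.04 and were not called, and neither ME1, with at most 2 counts in a library, nor NR0B1, with 0, was tested. FTH1, SLC48A1, ME1 and NR0B1 were named after their values were seen.

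Heme handling surrounds HMOX1. Of 25 tested genes of heme synthesis, breakdown and transport, 8 were called higher and 5 lower, or 52% against 41.9% of all genes tested, and with total-count scaling 13 were higher. The median was 0.08, against 0.01 over all genes tested. BLVRA, the biliverdin reductase that acts on the product of heme oxygenase, rose to 78.6 ± 4.83 CPM with oridonin, against 56.4 ± 2.65 CPM with DMSO (SD, n = 3, edgeR adjusted p = 5.75e-06). The constitutive heme oxygenase HMOX2, named after its value was seen because it is the paralog of HMOX1, was called higher at 0.34. SLC40A1, the iron exporter ferroportin, rose at 0.67 and UROD, a heme synthesis enzyme, at 0.41. HPX, the plasma heme carrier, fell by 0.66 and FLVCR1, a heme exporter, by 0.36 on the log2 scale.

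AP-1, ATF and heat shock factors are also known to act at the HMOX1 gene. Of 11 tested AP-1 and ATF subunits, 5 were called higher and 3 lower, or 72.7% against 41.9% of all genes tested, with a median of 0.18. FOSL1 rose to 81.0 ± 6.63 CPM with oridonin, against 39.1 ± 5.91 CPM with DMSO (SD, n = 3), and FOS rose at 0.92 and FOSL2 at 0.22. ATF4 fell to 447 ± 13.2 CPM with oridonin, against 639 ± 36.9 CPM with DMSO, and ATF3 fell by 0.57 on the log2 scale. The count called higher was 2 without oridonin library 1, oridonin library 3, DMSO library 1 or DMSO library 2, and 2 on the deposited log2 FPKM values. Of 18 genes of heat shock factor 1 and its targets, 11 were called higher and 3 lower, or 77.8% against 41.9% of all genes tested, with a median of 0.16. Called higher were 8 without DMSO library 1 or DMSO library 2, and 13 with total-count scaling. HSPH1 rose at 0.49, HSPA1B at 0.53 and HSPA1A at 0.58, the last pair uncertain singly because the copies are near-identical, while HSPB1 and HSP90AB1 fell by 0.47 and 0.31 on the log2 scale.

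Ratios between genes of the set within a library restate the levels above for pairs of genes. Where a ratio separates the treatments, this follows from those levels, in genes chosen with the values in view, and is no further result. The ratio of KEAP1 to NFE2L2 in FPKM was 1.41, 1.15 and 1.57 in oridonin libraries, against 0.779, 0.737 and 0.801 in DMSO libraries. KEAP1 was thus the more abundant transcript in each oridonin library, and NFE2L2 was the more abundant in each DMSO library. The ratio of BACH1 to NFE2L2 was 0.392 ± 0.0297 with oridonin and 0.217 ± 0.0139 with DMSO (SD, n = 3), without overlap. The ratio of BACH1 to HMOX1 was 1.13, 1.09 and 0.993 with oridonin and 0.747, 0.774 and 0.829 with DMSO. The ratio of SQSTM1 to KEAP1 was 1.496 ± 0.0683 with oridonin and 1.20 ± 0.0984 with DMSO, without overlap. The ratio of SQSTM1 to NFE2L1 was 0.835, 0.940 and 0.908 with oridonin and 0.438, 0.460 and 0.547 with DMSO, also without overlap. NFE2L1 stood at 2.43, 1.92 and 2.57 times NFE2L2 with oridonin and at 1.99, 1.89 and 1.92 times with DMSO, and these groups overlapped.

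**Figure D3:**
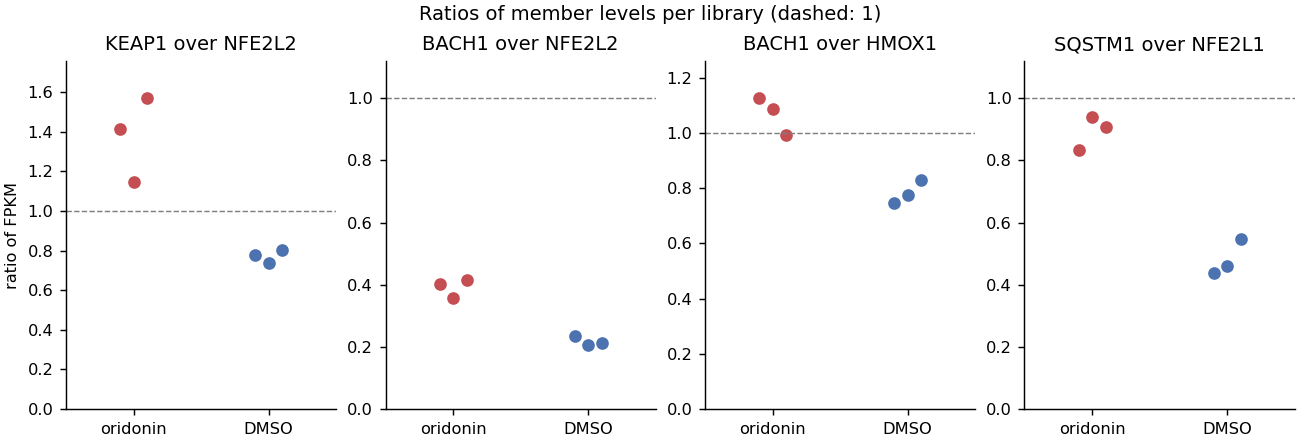
Ratio of the deposited FPKM of 2 genes (vertical axis, from 0) in each library, oridonin left and DMSO right. The ratio of KEAP1 to NFE2L2 lies above 1 in all oridonin libraries and below 1 in all DMSO libraries.

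Per length, the order of mean levels with oridonin was NFE2L1, SQSTM1, KEAP1, NFE2L2, MAFG, MAFK, BACH1, HMOX1, MAFF and CUL3. The ranges over libraries overlapped between NFE2L1 and SQSTM1, between BACH1 and HMOX1, and between MAFF and CUL3. With DMSO the order was NFE2L1, NFE2L2, SQSTM1, KEAP1, MAFG, MAFK, HMOX1, BACH1, MAFF and CUL3. Here NFE2L2 and SQSTM1, SQSTM1 and KEAP1, MAFG and MAFK, and BACH1 and MAFF overlapped. The ranges of SQSTM1 and KEAP1 met only at 30.91 FPKM. With levels made from counts, gene length and total counts, SQSTM1 and KEAP1 were apart in DMSO, as were MAFG and MAFK. SQSTM1 averaged 56.7 ± 2.65 FPKM with oridonin and 35.0 ± 4.95 FPKM with DMSO, and CUL3 averaged 6.68 ± 0.292 FPKM with oridonin and 6.28 ± 0.156 FPKM with DMSO (SD, n = 3). HMOX1 averaged 10.2 ± 0.497 FPKM with oridonin and 10.4 ± 0.620 FPKM with DMSO, which in DMSO lay above 71.5% of the genes tested.

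**Figure D4:**
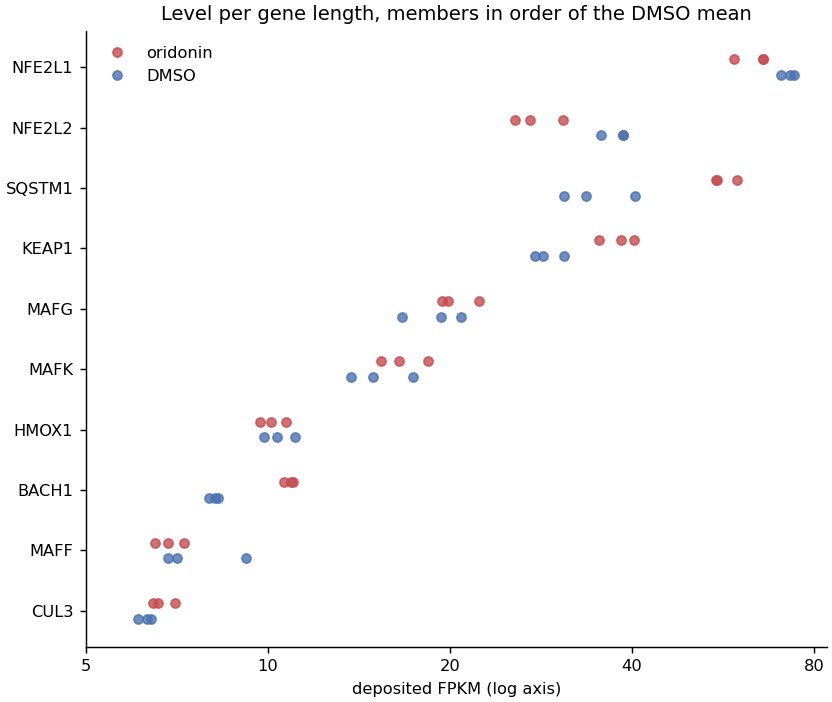
Deposited FPKM (horizontal axis, log scale) of the 10 genes in each library, in order of the DMSO mean from the top. SQSTM1 and KEAP1 lie above NFE2L2 in all oridonin libraries, and BACH1 reaches the level of HMOX1.

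Some of these genes overlap others, and the strand setting of the counting is not given in the sources used here, so reads in the shared bases cannot be assigned with certainty. MAFG shares 3054 bases with SIRT7 on its own strand, and SIRT7 stood at 87.1 CPM of total with oridonin and 57.1 with DMSO. SQSTM1 shares 2946 bases with MRNIP (17.7 CPM of total with oridonin, 14.2 with DMSO) and 555 bases with MGAT4B (297 with oridonin, 236 with DMSO), both on the opposite strand. MAFK shares 809 bases with TMEM184A and MAFF 4924 bases with PLA2G6, also on the opposite strand. NFE2L2 shares 54 bases with AGPS at the end of its annotated span. It also shares 109184 bases with AC019080.1 on its own strand, at 1.41 CPM of total with oridonin and 0.721 with DMSO. BACH1 shares 93819 bases with GRIK1 on the opposite strand, which had 1 to 6 counts in a library. Further overlapping genes of low count are not listed. No overlap with HMOX1 or NFE2L1 was found among the genes of the GENCODE annotation that had counts in these libraries. Genes without counts were left out of this search.

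Other regulators of NRF2 and the cullin 3 machinery were called at shares close to that of all genes. Of 34 tested regulators of the NRF2 and NRF1 proteins, 6 were called higher and 9 lower, or 44.1% against 41.9% of all genes tested. The nuclear receptor RXRA, which binds NRF2, fell by 0.41, the NRF2-phosphorylating kinase PERK, encoded by EIF2AK3, by 0.47 and the chromatin remodeller CHD6 by 0.37 on the log2 scale. CDKN1A, whose product p21 competes with KEAP1 for NRF2, rose at 1.07 and the importin gene KPNA6 at 0.19. The count called higher was 3 without oridonin library 1, 2 without DMSO library 1 and 13 with total-count scaling.

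Of 33 tested genes of the cullin 3 ligase machinery, 11 were called higher and 3 lower, or 42.4%, with a median of 0.06. KLHL21, an adaptor used in cell division, rose to 147 ± 12.1 CPM with oridonin, against 94.4 ± 7.20 CPM with DMSO (SD, n = 3, edgeR adjusted p = 1.49e-06). The adaptor genes KCTD10 and KLHL18 rose at 0.44 and 0.49. CAND1, which exchanges substrate receptors on cullins, fell by 0.21 and IVNS1ABP by 0.20 on the log2 scale, and no gene of this list was called lower with total-count scaling.

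Among 15 tested selective autophagy receptors and ATG8 proteins, the class of SQSTM1, 4 were called higher and 4 lower, or 53.3% against 41.9% of all genes tested, with a median of 0.06. OPTN, TAX1BP1 and GABARAPL2 rose at 0.23, 0.22 and 0.25, well short of SQSTM1 in size. The mitophagy receptors BNIP3 and BNIP3L fell to 146 ± 3.80 and 78.8 ± 2.66 CPM with oridonin, against 211 ± 11.9 and 109 ± 3.74 CPM with DMSO (SD, n = 3). GABARAP, named after its value was seen, had 1 to 8 counts in a library, although its protein is in wide use among cell types, and was not tested. Whether counts this low, also seen for ME1 and the macrophage marker CD68, reflect the cells or the assignment of reads to genes was not tested. With total-count scaling 8 of the list were called higher.

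Of 34 tested proteasome subunits and assembly genes, on which NRF1 acts, edgeR called 21 higher and 0 lower, or 61.8% against 41.9% of all genes tested, and the median was 0.16. Called higher were 14 without DMSO library 2, 16 without DMSO library 1 and 28 with total-count scaling. At an unadjusted p under 0.05 edgeR gave 0 of the list as lower, and DESeq2 and limma, with adjustment, gave 0. PSMD2, of the regulatory particle, rose to 628 ± 13.3 CPM with oridonin, against 427 ± 12.1 CPM with DMSO (SD, n = 3, edgeR adjusted p = 5.35e-08). The assembly chaperone gene POMP rose at 0.36 and PSMC4 at 0.33. PSMA2 and PSMA6, named after their values were seen, were tested and not called. They had 1.88 and 2.53 CPM with oridonin and 1.47 and 2.87 CPM with DMSO. PSMA7, by contrast, had 556 CPM with oridonin and 499.6 CPM with DMSO. Whether the low values of PSMA2 and PSMA6 reflect the cells or the assignment of reads to genes was not tested. Among 6 tested relatives of NRF2, 0 were called higher and 1 lower, or 16.7% against 41.9% of all genes tested, with a median of -0.24. NFE2, the erythroid member of the family, was called lower at 0.924 ± 0.303 CPM with oridonin and 1.67 ± 0.141 CPM with DMSO (SD, n = 3). It was not called without oridonin library 1. NFE2L3 had a log2 fold change of 0.15 and was not called, but was called at 0.19 without DMSO library 3.

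**Figure D5:**
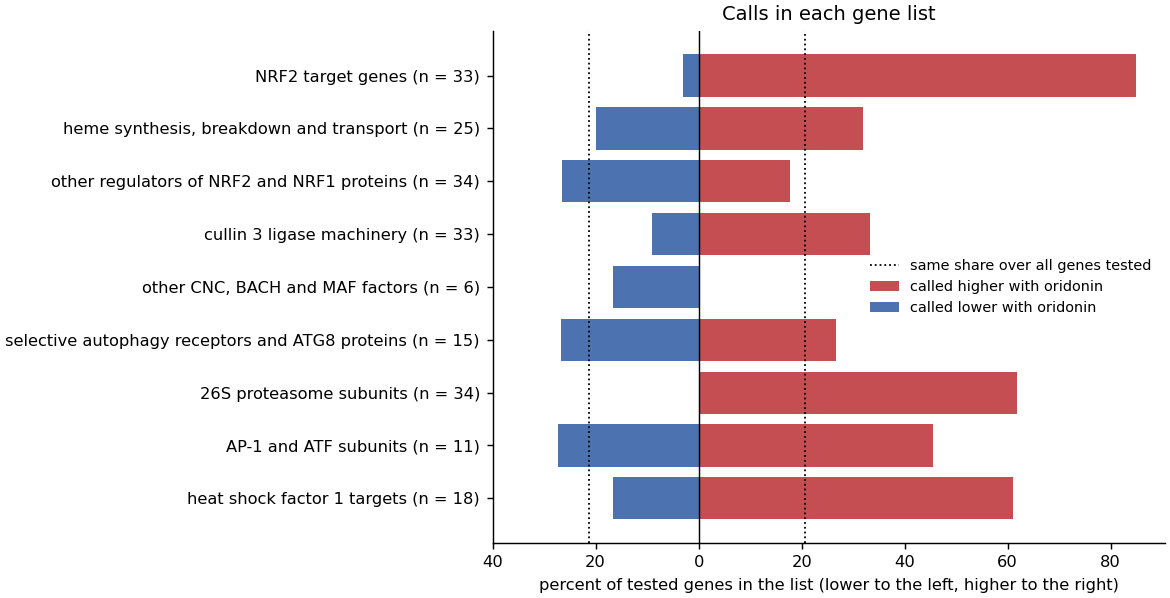
Percent of the tested genes in each list that edgeR called higher (bars to the right) or lower (bars to the left) with oridonin, with the dotted lines at the 20.6% and 21.3% of all genes tested. NRF2 targets, proteasome subunits and heat shock genes reach farthest to the right.

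The 10 genes also varied among libraries of 1 treatment. In DMSO, library 3 was the highest for KEAP1, NFE2L1, MAFG, MAFF, MAFK and SQSTM1, and library 1 was the lowest for these 6 genes. HMOX1 had the opposite order in DMSO. With oridonin, library 3 was the highest for KEAP1, MAFG, MAFF, MAFK, SQSTM1 and HMOX1, and library 2 was the lowest for KEAP1, NFE2L1, MAFG, MAFF and MAFK.

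Likeness of pattern was measured as the root mean square difference of log2 CPM, centred on the DMSO mean, over the 6 libraries, among the 9017 protein-coding genes that averaged 10 CPM or more. The genes most like HMOX1 included MRPS25 (0.0279) and APOOL (0.0289). Like HMOX1 these had log2 fold changes near 0, at -0.02 and -0.04. The genes most like SQSTM1 were RHBDF2 (0.0357), CLDN4 (0.0371) and HPCAL1 (0.0386), with log2 fold changes of 0.66, 0.70 and 0.66. The measure takes in the difference between groups, so fold changes close to those of HMOX1 and SQSTM1 follow from how these genes were picked.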

How the data were processed

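The authors deposited raw counts per gene and log2 FPKM values; the log2 FPKM table holds the 18404 genes with at least 1 count in each library, with no pseudocount, and each library's values match its counts divided by gene length and by a library size of 95.8% to 104% of its total. Per the submitters' processing notes, reads were placed on hg38 and DESeq2 1.10.1 was run; for the aligner, the counter and its strand setting the sources used here give nothing. Counts were tested in edgeR 4.0.16 (R 4.3.3): filterByExpr, TMM scaling, glmQLFit with robust estimation, glmQLFTest, treatment as the only term, adjusted p under 0.05 over 15116 genes. The SE is the size of the log2 fold change over the square root of F. Alternatives were total counts, median-ratio factors, other filters, DESeq2 1.42.0, limma 3.58.1 on log2 FPKM, a replicate block and leaving out each library. Members, lists and marker lists were chosen with earlier results of these data known, so the p-values printed for genes of the lists are descriptive. Named from each list were the called genes of lowest p, up to 3 in its commoner direction and up to 2 in the other; other genes were chosen after their values were seen. One gene that the rule for likeness of pattern would name is not reported here.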

Additional observations from a re-analysis of the deposited data

How the results depend on the processing

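NFE2L2, NFE2L1, KEAP1, BACH1 and SQSTM1 kept their direction and their call in all 14 alternatives, with log2 fold changes from -0.53 to -0.37, -0.24 to -0.13, 0.33 to 0.45, 0.37 to 0.47 and 0.60 to 0.79. HMOX1 was not called in any and ranged from -0.10 to 0.03, positive only with total counts (0.0303). With total counts, 65.5% of the genes called were higher, against 49.2% with TMM. Members called were then 8, NRF2 targets called lower 0, heme genes called higher 13, other NRF2 regulators called higher 13, cullin 3 genes called lower 0, relatives of NRF2 called higher 1 and autophagy genes called higher 8. On the deposited log2 FPKM, 0 NRF2 targets were called lower and 2 AP-1 and ATF genes higher. On log2(FPKM + 1) these were 0 and 2, with 3 NRF2 regulators called higher and 0 cullin 3 genes lower. Relatives of NRF2 called higher were 1 without the filter and 1 with CPM of at least 1 in 3 libraries. The cause of these shifts was not tested.

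Leaving out 1 library gave 0 to 1 NRF2 targets called lower, 2 to 7 NRF2 regulators called higher, 0 to 1 relatives called higher, 0 to 1 relatives called lower and 2 to 6 AP-1 and ATF genes called higher. The labels number the libraries of both groups 1 to 3 but name no pairing, so the numbers were not taken to pair them. Deviations of same-numbered libraries from their group means correlated at 0.194, 0.0651 and 0.173, and each oridonin library correlated best with its own number. Whether the numbers mark a shared culture or day is not stated. With the replicate block 7689 genes were called, against 6332 without it. The block gave 2 NRF2 targets called lower, 1 relative called higher and 7 autophagy genes called higher, and MAFF and MAFK were called at -0.18 and 0.11. With 593 counts in DMSO library 1, HMOX1 had the lowest count of the set and the widest counting error.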
